A study of Homo sapiens with 24 samples.

Results

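Developmental transcription factors outside the HOX and SOX families were followed in 3 human breast cancer cell lines under inhibitors of EZH2 and AKT. The 53 genes are a fixed list of symbols, chosen by name and kept whatever their level, and each has an entry among the 58735 entries of every deposited count file. By family they are 6 DLX, 6 FOX, 2 HAND, 6 TBX, 6 PAX, 4 LIM homeobox, 2 MSX, 2 NKX, 2 EN, 5 IRX, 2 EMX, 3 GATA and 2 MEIS genes, with SIX2, SIX3 and 3 paired-type homeobox genes (GSC, PITX1 and OTX1). The lines, named HCC1937, HCC38 and HCC1395, were all established from triple-negative breast tumours, which lack hormone receptors and HER2 amplification. Polyadenylated RNA was sequenced from 24 libraries in 8 groups of 3, each group with the letters A, B and C. HCC1937 and HCC38 cells received EZH2i+AKTi or DMSO, and HCC1395 cells received EZH2i+AKTi, EZH2i, AKTi or DMSO. EZH2i was tazemetostat at 5 uM and AKTi was ipatasertib at 5 uM. Each line is 1 established line, and single agents are in these data for HCC1395 alone. The time course in the labels is written for another line, MDA-MB-468, and another assay, so the length of treatment behind these libraries is not clear. Nothing says that the letters stand for separate cultures, and the p-values given here therefore cover library-to-library spread that may be technical.

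EZH2 is the enzyme of Polycomb repressive complex 2 (PRC2), which writes the repressive trimethyl mark on histone tails. In embryonic stem cells the classical targets of PRC2 are genes for developmental transcription factors, whose starts often lie in CpG-rich sequence, and in later tissues the complex holds many of them off where they are not used. Tazemetostat blocks the methyltransferase activity of EZH2. Ipatasertib blocks AKT, a kinase downstream of growth factor receptors that keeps FOXO factors out of the nucleus, among many other substrates. The factors described here pattern the embryo, DLX and MSX genes in the face and limb, GATA, HAND and NKX2-5 genes in the heart, PAX2, PAX6 and SIX2 in eye and kidney, and IRX and EN genes along the body and neural axes. In breast, TBX3 is needed for the mammary bud, and FOXC1 and EN1 are known for their expression in basal-like tumours.

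Since CpG-rich start regions are a hallmark of PRC2 targets, the sequence before the transcription start was examined in the RefSeq promoter table of build GRCh38.p14, where 37 of the 53 genes have an entry. The 250 bases before the first listed start were CpG-rich (GC content above 50% and a ratio of observed to expected CpG above 0.6) in 32 of the 37 genes, or 86.49%, against 60.18% of 15843 protein-coding genes. Their median was 22 CpG, against 17 over those protein-coding genes. Among the 37 windows the median CpG number was 24 for the 25 genes that EZH2i raised in HCC1395 and 25 for the 5 tested genes it left uncalled. CpG number therefore gave no order between these 2 sets. The FOXO core motif GTAAACA, read on either strand, was in 0 of the 37 windows and in 2.25% of the protein-coding windows of this length. Shown here are the 200 bases before the start, 5′ to 3′, for a gene that EZH2i brought up from silence (TBX1), the largest rise among genes well counted in DMSO (MSX1), a gene silent in all 3 untreated lines (PAX2), a gene higher under both inhibitors than under either alone (EN2) and the only gene with an entry that EZH2i lowered (TBX18). Capitals mark CpG. The windows are TBX1 at chr22:19756503-19756702 on the plus strand with 15 CpG, MSX1 at chr4:4859465-4859664 on the plus strand with 22, PAX2 at chr10:100735196-100735395 on the plus strand with 10, EN2 at chr7:155457929-155458128 on the plus strand with 33, and TBX18 at chr6:84764599-84764798 on the minus strand with 17. Those of PAX2 and TBX18 end 207 and 79 bases from the gene start in GENCODE 29.
TBX1: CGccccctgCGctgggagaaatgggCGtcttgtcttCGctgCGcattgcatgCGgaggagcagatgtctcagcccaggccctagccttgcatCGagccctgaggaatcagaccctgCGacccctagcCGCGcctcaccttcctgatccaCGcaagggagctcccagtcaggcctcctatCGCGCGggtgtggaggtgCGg
MSX1: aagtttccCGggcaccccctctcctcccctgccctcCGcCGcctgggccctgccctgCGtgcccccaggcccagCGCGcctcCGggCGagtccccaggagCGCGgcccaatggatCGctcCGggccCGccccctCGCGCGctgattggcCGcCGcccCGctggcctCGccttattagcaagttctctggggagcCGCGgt
PAX2: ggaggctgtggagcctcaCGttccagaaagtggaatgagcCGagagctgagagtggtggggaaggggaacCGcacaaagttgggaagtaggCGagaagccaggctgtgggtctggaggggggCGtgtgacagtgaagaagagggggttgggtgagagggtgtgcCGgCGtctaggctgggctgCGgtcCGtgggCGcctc
EN2: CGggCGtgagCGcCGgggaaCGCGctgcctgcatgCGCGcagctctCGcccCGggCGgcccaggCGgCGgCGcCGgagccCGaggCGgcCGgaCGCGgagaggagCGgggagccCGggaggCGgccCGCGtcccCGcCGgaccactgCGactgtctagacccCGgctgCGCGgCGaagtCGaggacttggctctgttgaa
TBX18: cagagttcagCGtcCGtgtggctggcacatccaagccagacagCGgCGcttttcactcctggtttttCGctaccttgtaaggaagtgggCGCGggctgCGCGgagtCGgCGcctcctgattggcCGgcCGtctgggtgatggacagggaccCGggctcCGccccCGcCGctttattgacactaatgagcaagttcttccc
EN2 has the most CpG of these 5 and PAX2 the fewest, and the lowered TBX18 lies between them.

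Library totals ran from 33469927 to 51815656 counts. Levels are given as CPM, counts relative to the library total, scaled by TMM over all 24 libraries. Transcripts of the drug targets were present in every group and do not check whether the enzymes were blocked. EZH2 averaged 74.2 ± 1.51 CPM under EZH2i+AKTi, 127 ± 1.39 CPM under EZH2i, 76.5 ± 2.59 CPM under AKTi and 135 ± 4.94 CPM in DMSO in HCC1395 (SD, n = 3 each). Summed epithelial markers (10 genes) were 6819 to 7621 CPM under EZH2i+AKTi and 7178 to 7754 CPM in DMSO in HCC1937, and 2974 to 3615 CPM under EZH2i+AKTi and 3675 to 4004 CPM in DMSO in HCC38. In HCC1395, which was lowest for these markers, the sum was 671.7 to 787.2 CPM under EZH2i+AKTi, 677.1 to 719.8 CPM under EZH2i, 464.4 to 499.3 CPM under AKTi and 496.9 to 516.6 CPM in DMSO. Summed fibroblast markers (8 genes, 3 of them above 1 CPM and none at 0) were 851.8 to 934.5, 826.7 to 849.3, 937.4 to 953.4 and 789.9 to 810.0 CPM in the same order. In HCC38 and HCC1937 the fibroblast sum stayed below 36 CPM. Endothelial markers (5 genes) summed to 66.5 to 71.2 CPM under EZH2i+AKTi and 35.9 to 38.8 CPM in DMSO in HCC1937 and to less than 5 CPM in the other lines, and immune markers (6 genes) to less than 10 CPM throughout. The part of these marker shifts in the results on the developmental genes was not tested.

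Which of these genes were off in untreated cells differed by line. A gene was counted as silent with a mean below 0.1 CPM, low from 0.1 to below 1 CPM and expressed from 1 CPM. In DMSO, 12 of the 53 were silent in HCC1937, 12 in HCC38 and 10 in HCC1395, and 33, 29 and 39 were expressed. Most of the list was therefore already transcribed in each line. In the same libraries 39480, 39285 and 39625 of all 58735 entries were silent. Those entries include noncoding transcripts, so they are not a like-for-like background for the 53 genes. In bulk RNA a low level from few cells cannot be told apart from little RNA in each cell.

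Silent in all 3 untreated lines were 6 genes, the cardiac and forelimb factor TBX5, the kidney factor PAX2, the neural crest and muscle factor PAX3, the neural tube and islet factor NKX2-2, the cortical factor EMX1 and the cardiac and endodermal factor GATA4. PAX3 had 0 counts in all 9 DMSO libraries. NKX2-2 had 1, 0 and 0 counts in HCC1937 and 0 in every DMSO library of HCC38 and HCC1395. GATA4 had 4, 0 and 6 counts in HCC38, 0, 1 and 0 in HCC1937 and 0 in HCC1395. A count of 0 in all 3 libraries of a group allows up to 3 counts over the group, or 0.0222 CPM in HCC1937 DMSO, 0.0289 CPM in HCC38 DMSO and 0.0277 CPM in HCC1395 DMSO, with counting error only. Another 5 were silent in 2 lines (HAND1, HAND2, TBX18, PAX7 and EMX2) and 6 in 1 line (DLX5, DLX6, FOXF1, TBX1, TBX15 and LHX1). The remaining 36 were silent in none, and 20 genes were expressed in all 3.

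**Figure D1:**
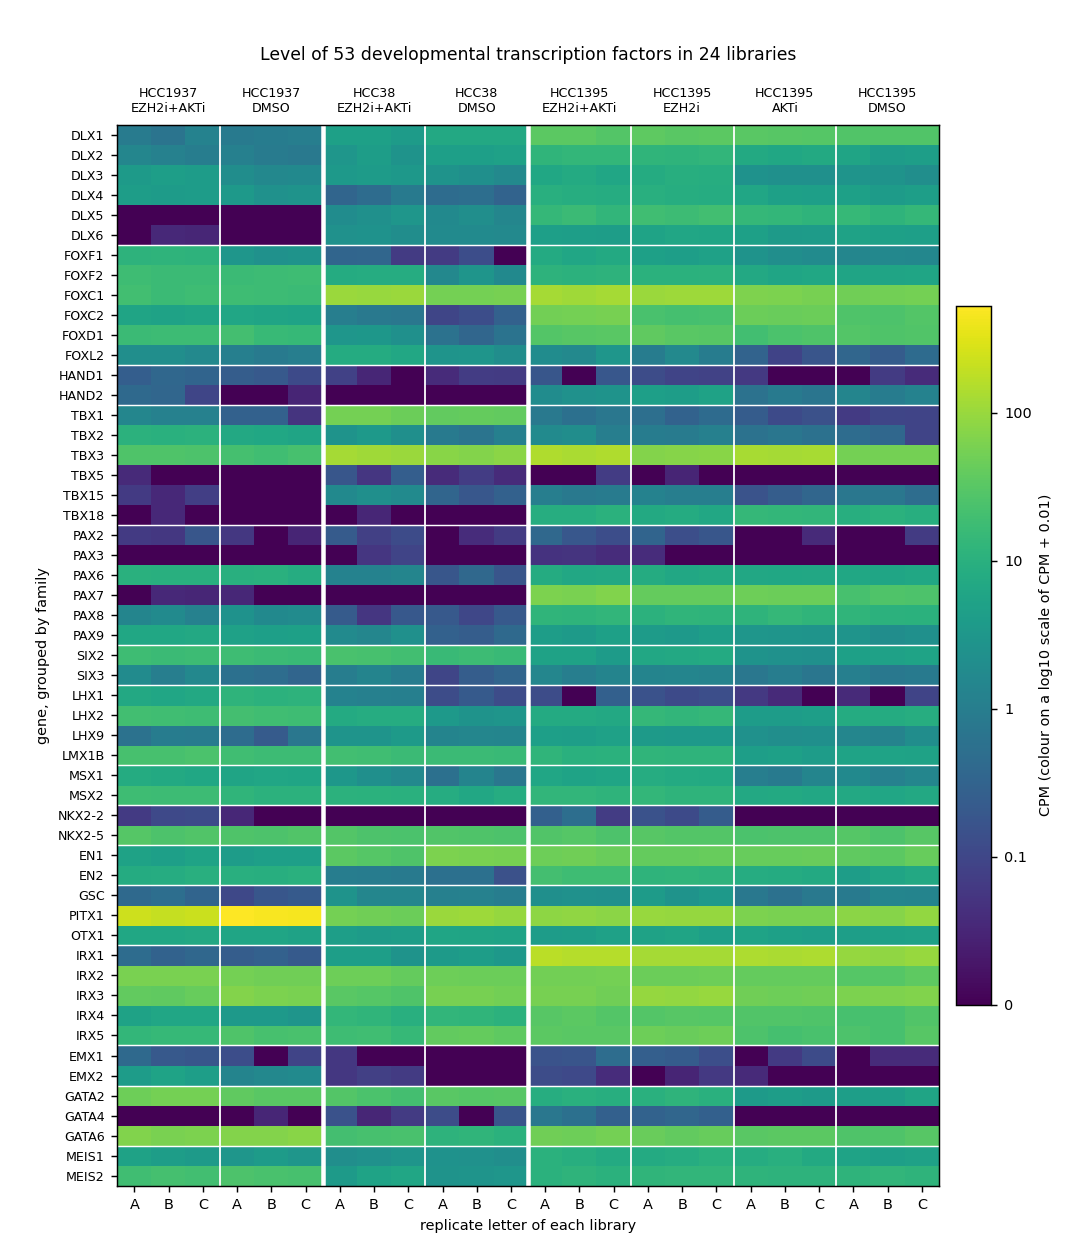
Level of each of the 53 genes (down the side, grouped by family) in each of the 24 libraries (across, by line, treatment and replicate letter), as CPM on a log10 colour scale with 0.01 CPM added. The darkest cells are libraries with no count, and 12, 12 and 10 genes have a DMSO mean below 0.1 CPM in HCC1937, HCC38 and HCC1395.

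Among genes silent in some lines, several differed by orders of magnitude. PAX7, the marker of muscle satellite cells, had 1, 0 and 0 counts in HCC1937 DMSO, 0 in every HCC38 DMSO library and 22.8, 26.9 and 25.3 CPM in HCC1395 DMSO. TBX18, a factor of the sinoatrial node and epicardium, had 0 counts in the DMSO libraries of HCC1937 and HCC38 against 9.04, 10.3 and 9.04 CPM in HCC1395. Only HCC1395 libraries held more than a handful of reads of either gene. From the floor of 3 counts over the silent group, TBX18 was at least 425-fold lower in HCC1937 and at least 327-fold lower in HCC38 than in HCC1395, and PAX7 at least 865-fold lower in HCC38. The neighbouring genes DLX5 and DLX6, which act in craniofacial bone and lie 9.4 kb apart on chromosome 7, were both at 0 counts in HCC1937 DMSO. DLX5 averaged 1.76 ± 0.345 CPM in HCC38 DMSO and 13.5 ± 1.59 CPM in HCC1395 DMSO, and DLX6 1.75 ± 0.102 and 4.92 ± 0.388 CPM (SD, n = 3 each). HAND2, a heart and limb factor, had 0, 0 and 1 counts in HCC1937 DMSO and 0 in HCC38 DMSO, while HCC1395 DMSO libraries had 1.43, 0.967 and 1.25 CPM.

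Other genes marked HCC38 or HCC1937. TBX1, the pharyngeal arch gene of the deletion syndrome on chromosome 22, had 0.288, 0.286 and 0.0416 CPM in HCC1937 DMSO, 38.2, 40.8 and 38.8 CPM in HCC38 DMSO and 0.0538, 0.0854 and 0.0834 CPM in HCC1395 DMSO. All HCC38 libraries lay far above both other lines (-7.59 ± 0.20 on the log2 scale for HCC1937 over HCC38 and 8.99 ± 0.24 for HCC38 over HCC1395, adjusted p = 1.77e-23 and 1.48e-23 by edgeR's quasi-likelihood test). The head organizer factor LHX1 had 11.7, 10.9 and 11.3 CPM in HCC1937 DMSO, 0.114, 0.209 and 0.113 CPM in HCC38 DMSO and 0.0269, 0 and 0.0834 CPM in HCC1395 DMSO, with no overlap of HCC1937 with the others. EMX2, a cortical and urogenital factor, was detected in DMSO in HCC1937 alone, at 1.35, 1.56 and 1.81 CPM, which is at least 54.9-fold above HCC38 and at least 57.2-fold above HCC1395. The hindlimb factor PITX1 had 531, 479 and 465 CPM in HCC1937 DMSO, 103, 106 and 96.2 CPM in HCC38 DMSO and 80.5, 74.4 and 89.3 CPM in HCC1395 DMSO. Its HCC1937 level stood above every other untreated library of the 3 lines. Per kb of exon, the highest of the 53 genes in DMSO was PITX1 in HCC1937 (140.1 CPM per kb) and in HCC38 (29), and IRX1 in HCC1395 (50.7). IRX1 was at 2.04 CPM per kb in HCC38 and 0.132 in HCC1937.

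Over the 48 genes tested in the joint comparison of untreated lines, 22 were higher and 16 lower in HCC1937 than in HCC38, where 36.2% and 35.6% of all 20697 genes were called (71.9% in either direction, adjusted p under 0.05). HCC1937 over HCC1395 gave 20 higher and 22 lower, beside 37.3% and 35.7% of all genes (73% in either direction). HCC38 over HCC1395 gave 14 higher and 25 lower, beside 38.2% and 36.5% (74.7% in either direction). Differences between untreated lines were thus called for most genes of any kind. In HCC38 25 of 48 were lower than in HCC1395, among them FOXC2 (-7.34 ± 0.16), PAX8 (-6.08 ± 0.24), FOXD1 (-5.70 ± 0.18) and PAX6 (-4.71 ± 0.19).

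EZH2 inhibition in HCC1395 raised most of these genes. Of the 53, 45 passed the filter on low counts, 4 of them (FOXL2, TBX1, TBX2 and GATA4) without passing it in every DMSO library, so that those 4 could hardly appear other than as raised and support nothing by their number. Among the 41 that passed in every DMSO library, 31 were higher and 2 lower under EZH2i than in DMSO, where 17.7% and 17.3% of the 15505 genes of that kind were called. Over all 45 the calls were 35 higher and 2 lower, beside 18.8% and 14.9% of all 18074 genes tested (33.7% in either direction), and the median log2 change was 0.72, beside 0.02 over all genes. A change of at least 2-fold was called upward for 15 and downward for 0, beside 1337 and 67 of all 18074 genes. The 15 included FOXL2, TBX1, TBX2 and GATA4. Since the list was chosen with earlier results of these data known, these shares describe it and test nothing. In the same libraries 6 of the 10 epithelial markers were called higher and 0 lower, and 2 of 6 tested fibroblast markers higher and 0 lower. The share of counts from mitochondrial genes also moved with treatment in HCC1395, at 6.20 ± 0.09% under EZH2i+AKTi, 4.74 ± 0.39% under EZH2i, 5.55 ± 0.19% under AKTi and 3.85 ± 0.08% in DMSO (SD, n = 3 each), and its part in the results was not tested.

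Of the 12 genes below 0.5 CPM in HCC1395 DMSO, EZH2i opened 4, that is, they were called higher with a log2 change of at least 1. This rule could be met by 4 of the 12, the others having too few counts to be tested, and it was met by 23.4% of the 3249 genes tested below that level. None of the 4 had passed the filter in every DMSO library. They could hardly be called other than higher, so their number supports nothing. TBX1 had 0.529, 0.295 and 0.448 CPM under EZH2i, against 0.0538, 0.0854 and 0.0834 CPM in DMSO. FOXL2, a factor of ovarian granulosa cells, had 0.969, 1.69 and 0.945 CPM under EZH2i, against 0.35, 0.228 and 0.445 CPM in DMSO. TBX2, a repressor of the limb and mammary bud related to TBX3, had 0.94, 0.927 and 1.14 CPM under EZH2i, against 0.458, 0.37 and 0.0834 CPM in DMSO. All EZH2i libraries lay above all DMSO libraries for these genes, by 2.45 ± 0.51, 1.83 ± 0.37 and 1.72 ± 0.38 on the log2 scale (adjusted p = 0.000713, 0.000654 and 0.00137). GATA4 had 10, 17 and 11 counts under EZH2i and none in DMSO or under AKTi, which is at least 11.3-fold above DMSO (adjusted p = 0.000286). The level it reached, 0.308 CPM, was still low, as was that of TBX1, 0.424 CPM.

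The other 8 stayed near the limit of detection. Summed over 3 libraries, NKX2-2 had 19 counts under EZH2i and 0 in DMSO, at least 5.63-fold more. PAX2 had 24 counts under EZH2i and 2 in DMSO, a ratio of 10.7 with a 95% counting interval of 2.65 to 93.2, and EMX1 25 and 2, a ratio of 11.1 (2.77 to 96.9). These 3 genes were called when the filter on low counts was dropped, which brings the number opened by EZH2i to 7. HAND1, a heart and placenta factor, had 11 counts under EZH2i and 3 in DMSO, and its interval of 0.862 to 18.2 includes no change. LHX1 had 15 and 4 counts, EMX2 3 and 0, and PAX3 and TBX5 1 and 0 each. TBX5, PAX3, EMX2 and HAND1 stayed below 0.1 CPM under EZH2i, and TBX5, PAX3 and EMX2 below it under EZH2i+AKTi too.

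**Figure D2:**
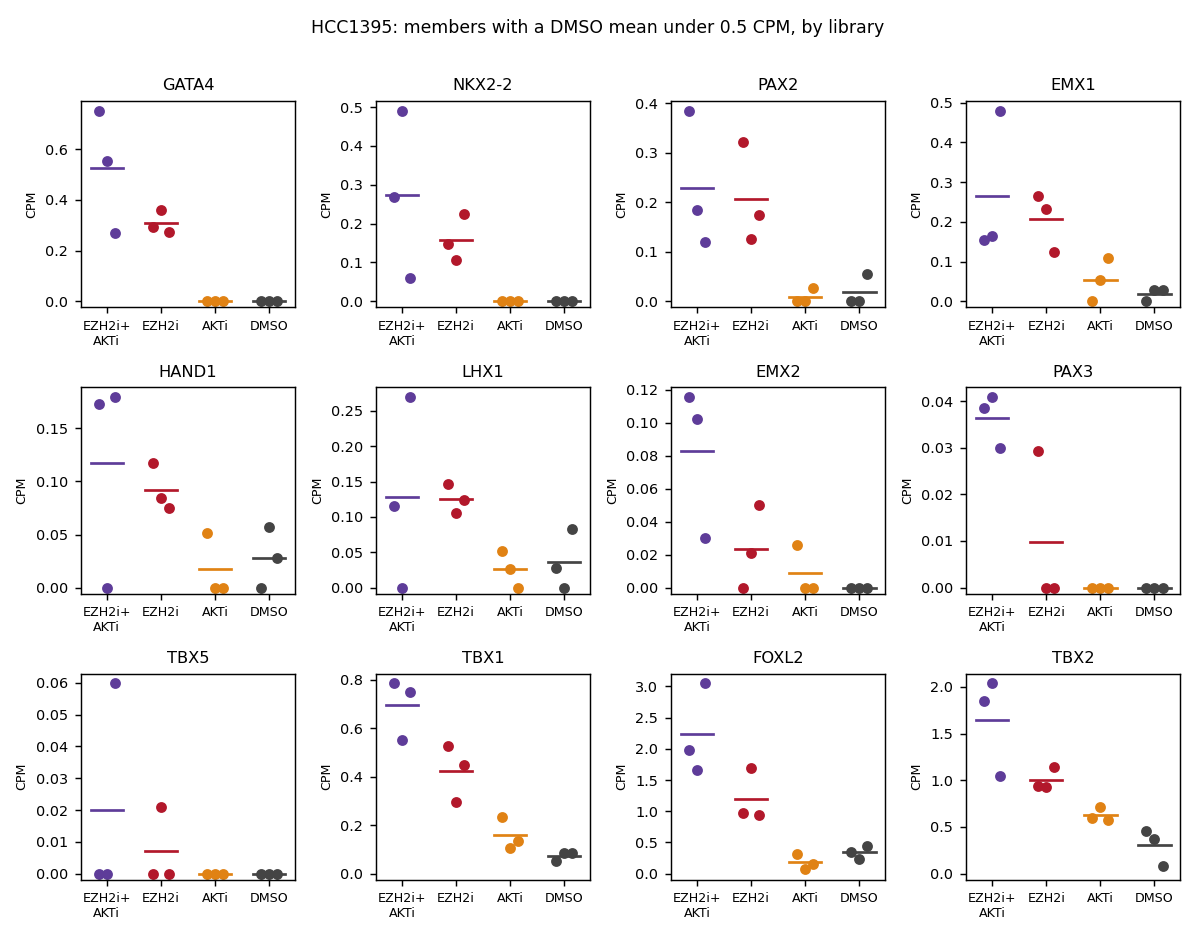
CPM in each library (points) and group mean (line) of the 12 genes with a DMSO mean below 0.5 CPM in HCC1395, under EZH2i+AKTi, EZH2i, AKTi and DMSO, each panel with its own axis. GATA4 and NKX2-2 have no count under AKTi or in DMSO, and the EZH2i and EZH2i+AKTi libraries of TBX1 and FOXL2 lie above all AKTi and DMSO libraries.

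Genes that were already transcribed in DMSO rose as well. MSX1, which acts in tooth and palate, had 8.28, 7.61 and 7.49 CPM under EZH2i, against 1.75, 1.2 and 1.47 CPM in DMSO (2.40 ± 0.15, adjusted p = 1.85e-10). HAND2 had 4.55, 4.24 and 5.3 CPM under EZH2i, against 1.43, 0.967 and 1.25 CPM in DMSO (1.95 ± 0.18, adjusted p = 4.75e-08). DLX3, a factor of epidermis and placenta, had 8.22, 9.14 and 8.73 CPM under EZH2i, against 2.83, 2.67 and 2.17 CPM in DMSO (1.77 ± 0.13, adjusted p = 8.49e-10). For each of these 3 genes every EZH2i library exceeded every DMSO library. The gut and lung mesenchyme factor FOXF1 (1.67 ± 0.15), the organizer factor GSC (1.47 ± 0.20), DLX2 of forebrain and face (1.38 ± 0.11) and the gonadal factor LHX9 (1.15 ± 0.16) also more than doubled.

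By family, 5 of 6 DLX genes, 5 of 6 FOX genes, all 5 IRX genes and all 3 GATA genes were called higher under EZH2i. So were all 3 tested LIM homeobox genes, both MSX genes and the 1 tested HAND gene. Among tested TBX genes 4 of 5 were higher and 1 lower, with 2 of 4 PAX and 2 of 3 paired-type genes higher. Of SIX2 and SIX3, of the EN genes and of the MEIS genes, 1 of 2 was higher, and the 1 tested NKX gene was not called. Of all 18074 genes tested, 18.8% were higher and 14.9% lower. Single families were not tested against these shares. FOXC1, the basal-like factor, had 105, 109 and 108 CPM under EZH2i, against 49.2, 53.4 and 54.4 CPM in DMSO, a doubling from a high level (1.04 ± 0.06). GATA2, of blood progenitors, changed by 1.11 ± 0.11, LMX1B, of the dorsal limb, by 1.11 ± 0.10, and EN2, of the midbrain and hindbrain boundary, by 1.05 ± 0.12. The IRX genes moved less, from 0.33 for IRX4 to 0.85 for IRX5. PAX genes were split, since PAX7 (0.72 ± 0.07) and PAX9 (0.72 ± 0.15) rose while PAX6 (0.21) and PAX8 (0.07) were not called. Also without a call were DLX6 (0.28), SIX3 (0.58), OTX1 (0.15), EN1 (0.13), MEIS2 (0.07) and NKX2-5 (0.04). TBX15, of the skeleton and adipose tissue, was called higher (0.78 ± 0.28, adjusted p = 0.0357) but lost the call without any 1 of DMSO A, DMSO C, EZH2i A, EZH2i B or EZH2i C (adjusted p from 0.0517 to 0.145) by DESeq2 (0.056) and with no low-count filter (0.0837). FOXD1, of the kidney stroma (0.29 ± 0.09), lost it without EZH2i A, where its change was 0.18 (adjusted p = 0.158).

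The 2 genes that fell were FOXC2 and TBX18. FOXC2, a factor of lymphatic and vascular development, had 23, 21.5 and 22.2 CPM under EZH2i, against 26, 25.9 and 28.9 CPM in DMSO (-0.27 ± 0.06, adjusted p = 0.00172). TBX18 had 7.52, 8.05 and 6.67 CPM under EZH2i, against 9.04, 10.3 and 9.04 CPM in DMSO (-0.35 ± 0.10, adjusted p = 0.00858). Neither gene's groups overlapped, but the call of TBX18 was lost without DMSO B or without EZH2i C (adjusted p = 0.0578 and 0.0571). FOXC2 lies 51.4 kb from FOXF1 on chromosome 16, and the neighbours moved apart, FOXF1 having 4.84, 4.53 and 5.15 CPM under EZH2i, against 1.48, 1.56 and 1.53 CPM in DMSO. Of the 10 pairs of listed genes less than 1000 kb apart, this was the pair with calls in opposite directions under EZH2i.

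**Figure D3:**
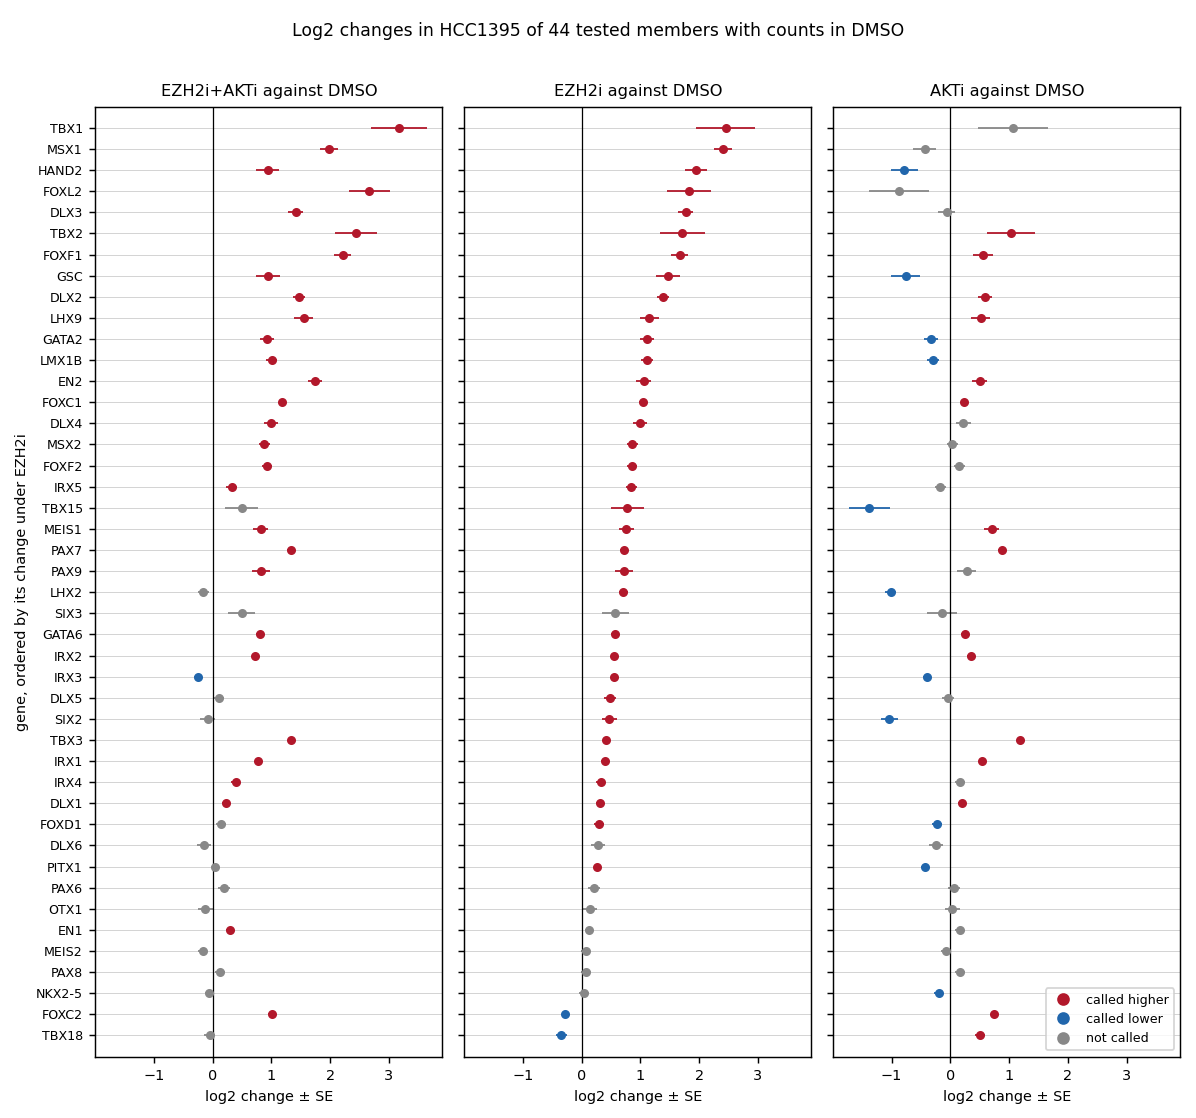
Log2 change against DMSO with its SE (horizontal axis) in HCC1395 under EZH2i+AKTi, EZH2i and AKTi for the 44 tested genes that had counts in DMSO, ordered by the change under EZH2i, red where called higher, blue where called lower and grey where not called. The EZH2i panel has 34 red points and 2 blue ones, FOXC2 and TBX18, and the AKTi panel has 15 red and 11 blue.

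AKT inhibition in HCC1395 moved the same list both ways. Of the 45 tested genes, 15 were higher and 11 lower under AKTi than in DMSO, beside 27.1% and 22.6% of all genes tested (49.7% in either direction), so the share called was close to that of genes at large. The median change was 0.11 without GATA4, which had no count in either group, beside 0.06 over all genes. Among genes over the filter in every DMSO library the calls were 14 higher and 11 lower of 41, beside 29% and 26%. TBX3 had the largest rise, with 129, 123 and 127 CPM under AKTi, against 55.6, 55.3 and 55.6 CPM in DMSO (1.18 ± 0.05, adjusted p = 2.33e-13). PAX7 had 48.1, 45.4 and 45.2 CPM under AKTi, against 22.8, 26.9 and 25.3 CPM in DMSO (0.88 ± 0.07). FOXC2 had 46.3, 44.3 and 45.3 CPM under AKTi, against 26, 25.9 and 28.9 CPM in DMSO (0.74 ± 0.06). In all 3 genes the AKTi and DMSO libraries did not overlap, and FOXC2 rose under AKTi where it fell under EZH2i. MEIS1, a HOX cofactor (0.70 ± 0.13), DLX2 (0.59 ± 0.11), FOXF1 (0.55 ± 0.16, lost without AKTi A), IRX1 (0.53 ± 0.05), TBX18 (0.50 ± 0.09), EN2 (0.49 ± 0.13) and IRX2 (0.34 ± 0.06) were also higher. Increases were also called for GATA6 (0.24), FOXC1 (0.23), DLX1 (0.20) and LHX9 (0.51), of which DLX1 lost the call without DMSO B, AKTi A or AKTi B (adjusted p from 0.0504 to 0.0675) and LHX9 without DMSO A, DMSO B or AKTi A (0.0505 to 0.0947). DLX1 also lost it under RLE scaling, with no low-count filter and by DESeq2 (0.0556 to 0.0641).

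The genes that AKTi lowered included several that EZH2i raised. LHX2, of eye, forebrain and hair follicle, had 4.1, 4.01 and 4.43 CPM under AKTi, against 8.15, 8.2 and 8.84 CPM in DMSO (-1.01 ± 0.09, adjusted p = 1.57e-08). SIX2, which maintains nephron progenitors, had 2.71, 2.42 and 2.39 CPM under AKTi, against 4.82, 5.15 and 5.42 CPM in DMSO (-1.04 ± 0.14, adjusted p = 2.40e-06). Both genes fell to about the middle between 0 and their DMSO level, with no overlap of libraries. TBX15 (-1.38 ± 0.35), HAND2 (-0.79 ± 0.23), GSC (-0.76 ± 0.24), PITX1 (-0.44 ± 0.06) and IRX3 (-0.41 ± 0.06) were lower too, as were GATA2 (-0.33), LMX1B (-0.30), FOXD1 (-0.23) and NKX2-5 (-0.20) by smaller steps. Of these, NKX2-5 lost its call without DMSO A, DMSO C or any 1 AKTi library (adjusted p from 0.0638 to 0.205) and with the stricter filter (0.0521), FOXD1 without any 1 DMSO library, AKTi A or AKTi B (0.0501 to 0.253), LMX1B without DMSO A, DMSO B, AKTi A or AKTi C (0.065 to 0.111), GATA2 without DMSO C, AKTi A or AKTi C (0.0987 to 0.255) and GSC without DMSO B, DMSO C or AKTi B (0.0538 to 0.0693). Because EZH2i and AKTi were each set against the same DMSO libraries, the direct comparison is the one that separates them. There, EZH2i over AKTi gave 31 of 45 genes higher and 5 lower, beside 28.6% and 27% of all genes (55.6% in either direction). The 31 included FOXL2, TBX1 and GATA4, which passed the filter through libraries with EZH2i and support nothing by their number. The 5 lower were FOXC2 (-1.02), TBX18 (-0.85), TBX3 (-0.77), PAX7 (-0.16) and IRX1 (-0.14). The call of PAX7 was lost without any 1 of the 6 libraries (adjusted p from 0.0587 to 0.172) and by DESeq2 (0.0527), and that of IRX1 without AKTi A, AKTi C, EZH2i A or EZH2i B (0.0632 to 0.217).

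Of the 12 genes below 0.5 CPM in DMSO, 4 were tested, FOXL2, TBX1 and GATA4 among them only through libraries with EZH2i. AKTi opened at most 1 of the 4, TBX2, too few to read against 13.2% of the 3249 tested genes at that level. TBX2 had 0.594, 0.717 and 0.571 CPM under AKTi, against 0.458, 0.37 and 0.0834 CPM in DMSO (1.03 ± 0.41, adjusted p = 0.0415). The groups did not overlap, but the call was lost without DMSO B, DMSO C, AKTi A, AKTi B or AKTi C (adjusted p from 0.0515 to 0.207). TBX1 had 0.232, 0.106 and 0.136 CPM under AKTi, against 0.0538, 0.0854 and 0.0834 CPM in DMSO, and was not called (1.06 ± 0.60). The summed counts of the others under AKTi were 0 for GATA4, NKX2-2, TBX5 and PAX3, 1 for PAX2 and EMX2, 2 for HAND1, 3 for LHX1 and 6 for EMX1. FOXL2 averaged 0.184 ± 0.116 CPM under AKTi and 0.341 ± 0.109 CPM in DMSO (SD, n = 3 each; -0.88 ± 0.51, not called).

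Given together, the inhibitors raised 30 of the 45 tested genes and lowered 1, IRX3, beside 32.5% and 27.4% of all genes (60% in either direction), with a median change of 0.82 against 0.07 over all genes. Among the 41 over the filter in every DMSO library, 26 were higher and 1 lower, beside 31.2% and 31.8%. EN2 had 20.8, 18.4 and 17.7 CPM under EZH2i+AKTi, 11.8, 12.2 and 11.1 CPM under EZH2i, 8.49, 8.23 and 7.26 CPM under AKTi and 4.33, 5.66 and 6.98 CPM in DMSO. Its combination libraries lay above those of every other group (1.74 ± 0.12 over DMSO, 0.69 ± 0.11 over EZH2i and 1.25 ± 0.12 over AKTi). FOXF1 had 7.78, 6.25 and 7.34 CPM under EZH2i+AKTi, against 4.84, 4.53 and 5.15 CPM under EZH2i, 2.66, 2.18 and 1.9 CPM under AKTi and 1.48, 1.56 and 1.53 CPM in DMSO (2.21 ± 0.14 over DMSO). PAX7 had 62.9, 58.7 and 67.9 CPM under EZH2i+AKTi, above all libraries of either single agent (0.61 ± 0.06 over EZH2i and 0.45 ± 0.06 over AKTi). TBX3 reached 146, 132 and 144 CPM under EZH2i+AKTi, near the 129, 123 and 127 CPM of AKTi alone (0.15 ± 0.05 over AKTi, a call lost without AKTi B, AKTi C or EZH2i+AKTi A, adjusted p from 0.0614 to 0.118, and in a fit of only these groups, 0.0579). For FOXF1, PAX7 and TBX3 alike, every combination library exceeded every library of EZH2i alone.

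The genes opened under EZH2i+AKTi were the same 4 as under EZH2i, all 4 that could be tested, beside 35.6% of tested genes below 0.5 CPM. They passed the filter through treated libraries, so their number supports nothing. FOXL2 had 1.98, 1.66 and 3.06 CPM and TBX1 0.789, 0.552 and 0.749 CPM under EZH2i+AKTi (2.67 ± 0.35 and 3.17 ± 0.47 over DMSO). TBX2 had 1.85, 2.04 and 1.05 CPM under EZH2i+AKTi (2.44 ± 0.36 over DMSO). GATA4 had 39, 27 and 9 counts under EZH2i+AKTi, at least 20.2-fold more than the 0 in DMSO. Over EZH2i alone, FOXL2 (0.84 ± 0.29) and TBX2 (0.72 ± 0.29) were called higher while TBX1 (0.72 ± 0.34) was not. The call of FOXL2 was lost without EZH2i A, EZH2i C or EZH2i+AKTi C (adjusted p from 0.0844 to 0.12), and that of TBX2 without any 1 EZH2i library, EZH2i+AKTi A or EZH2i+AKTi B (0.0608 to 0.152) and by DESeq2 (0.0516). Among the genes too low to test, NKX2-2 had 40 counts (at least 10.8-fold more than DMSO), EMX2 12 (at least 3.23-fold), PAX3 5 (at least 1.34-fold), PAX2 33 (ratio 13.3, 3.40 to 114) and EMX1 32 (ratio 12.9, 3.29 to 111). Their libraries were uneven, with 14, 24 and 2 counts of NKX2-2 and 8, 8 and 16 of EMX1.

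Adding AKTi to EZH2i changed 13 genes upward and 12 downward relative to EZH2i alone, beside 23.9% and 25.1% of all genes (49% in either direction). Adding EZH2i to AKTi raised 34 and lowered 1, TBX18, beside 17% and 18.6% (35.5% in either direction). The 34 included FOXL2, TBX1 and GATA4, which passed the filter through libraries with EZH2i and support nothing by their number. HAND2 had 1.96, 2.47 and 2.67 CPM under EZH2i+AKTi, 4.55, 4.24 and 5.3 CPM under EZH2i, 0.594, 0.85 and 0.68 CPM under AKTi and 1.43, 0.967 and 1.25 CPM in DMSO. Its combination level fell between the single agents (-1.01 ± 0.17 over EZH2i and 1.73 ± 0.21 over AKTi). LHX2 had 7.59, 7.89 and 7.25 CPM under EZH2i+AKTi, 14.1, 13 and 14.1 CPM under EZH2i, 4.1, 4.01 and 4.43 CPM under AKTi and 8.15, 8.2 and 8.84 CPM in DMSO, so that the combination was not called against DMSO (-0.15 ± 0.09). The same held for SIX2 (-0.08 ± 0.13 over DMSO), PITX1 (0.04 ± 0.06) and DLX5 (0.10 ± 0.10), each called higher under EZH2i alone.

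A departure from additive log2 changes was called for 2 genes, 1 each way, beside 0.526% and 1.06% of all genes (1.58% in either direction). Of the 45, 13 had an unadjusted p below 0.05, but that share was not counted over all genes, so the number supports nothing. FOXC2 had 52.2, 53.8 and 57.1 CPM under EZH2i+AKTi, 23, 21.5 and 22.2 CPM under EZH2i, 46.3, 44.3 and 45.3 CPM under AKTi and 26, 25.9 and 28.9 CPM in DMSO. Its combination exceeded the sum of the single-agent changes by 0.53 ± 0.09 (adjusted p = 0.00165), and the call held without each library in turn. IRX3 had 57.5, 56.6 and 51 CPM under EZH2i+AKTi, 93.8, 92 and 101 CPM under EZH2i, 50.7, 48 and 49.2 CPM under AKTi and 62.6, 64 and 68.7 CPM in DMSO. The rise under EZH2i was absent from the combination, an interaction of -0.40 ± 0.08 (adjusted p = 0.0148) that was lost without DMSO A, AKTi A, EZH2i A or EZH2i C (adjusted p from 0.052 to 0.0798). Without EZH2i+AKTi C, 7 genes were called, with DLX2, TBX3, PAX7, SIX2 and MEIS1 added.

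**Figure D4:**
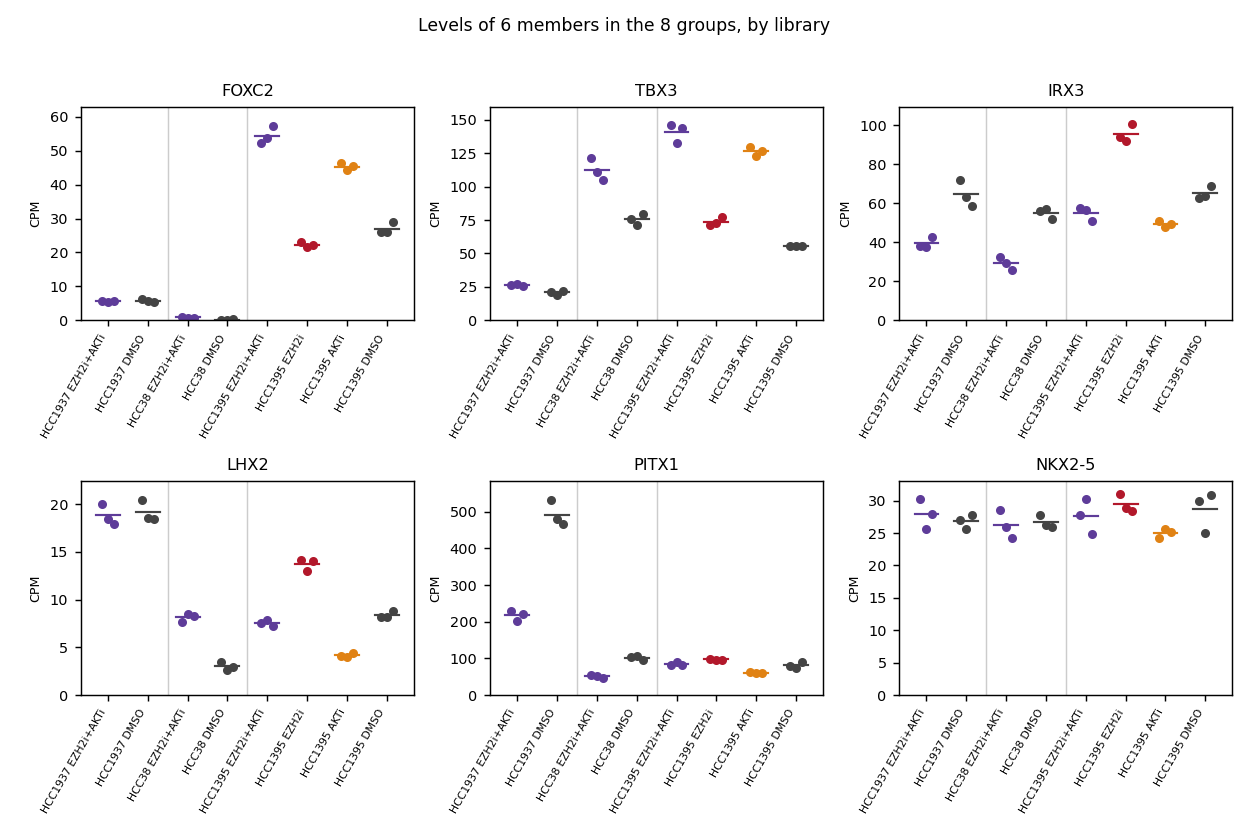
CPM in each library (points) and group mean (line) of 6 genes over the 8 groups, colour by treatment, each panel with its own axis from 0. FOXC2 is highest under EZH2i+AKTi in HCC1395, IRX3 is below DMSO under EZH2i+AKTi in each line, PITX1 is highest in HCC1937 DMSO, and NKX2-5 stays between 24.2 and 31.1 CPM.

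In HCC38 the combination raised 21 of 40 tested genes and lowered 8, beside 16.8% and 14.5% of all 17100 genes (31.4% in either direction), with a median of 0.50 against -0.01 over all genes. Of these 40, 33 passed the filter in every DMSO library, and of those 14 were higher and 8 lower, beside 15.7% and 15.8%. The share of counts from mitochondrial genes in the combination libraries was 5.91 ± 1.63%, with 7.77% in library C, and 5.56 ± 0.41% in DMSO (SD, n = 3 each), and calls that were lost without a library are given with it. Of the cell type markers, 4 of 9 tested epithelial genes were lower and 2 higher, and both tested fibroblast genes were higher, and their part in the results was not tested. Of 21 genes below 0.5 CPM in DMSO, 8 were tested and 7 met the rule for opened genes, beside 23.8% of 1947 tested genes at that level. These 7 are the genes that did not pass the filter in every DMSO library and entered through the combination libraries, where they are high, so their number supports nothing, and the other tested gene, DLX4, was not opened. This rule was carried over from HCC1395 after the values were seen. PAX9, of tooth and thymus, had 1.83, 1.46 and 2.33 CPM under EZH2i+AKTi, against 0.285, 0.239 and 0.395 CPM in DMSO (2.56 ± 0.29, adjusted p = 0.000156). PAX6, the eye factor, had 1.25, 1.22 and 1.41 CPM under EZH2i+AKTi, against 0.171, 0.389 and 0.169 CPM in DMSO (2.37 ± 0.34). LHX1 had 1.22, 1.15 and 1.08 CPM under EZH2i+AKTi, against 0.114, 0.209 and 0.113 CPM in DMSO (2.94 ± 0.33). None of these 3 genes had overlapping groups. TBX15 (2.81 ± 0.28), FOXC2 (2.33 ± 0.41), the forebrain factor SIX3 (2.25 ± 0.39) and EN2 (1.17 ± 0.39) completed the 7. EN2 lost its call without any 1 DMSO library, EZH2i+AKTi A or EZH2i+AKTi B, with adjusted p from 0.0553 to 0.114.

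Outside those, FOXD1 had 3.06, 3.11 and 2.33 CPM under EZH2i+AKTi, against 0.599, 0.359 and 0.621 CPM in DMSO (2.39 ± 0.25), and FOXF2 8.0, 8.33 and 8.25 CPM under EZH2i+AKTi, against 1.6, 2.93 and 1.72 CPM in DMSO (1.95 ± 0.21). FOXL2 (1.55 ± 0.17), TBX2 (1.66 ± 0.26), LHX2 (1.41 ± 0.14), MSX1 (1.43 ± 0.34) and LHX9 (1.09 ± 0.18) also rose at least 2-fold. Of the 8 genes that fell, EN1 had 33.9, 30.3 and 27 CPM under EZH2i+AKTi, against 60.9, 59.5 and 57.1 CPM in DMSO (-0.99 ± 0.11, adjusted p = 0.000118). IRX5 (-1.21 ± 0.12), PITX1 (-1.03 ± 0.10), IRX3 (-0.94 ± 0.11) and DLX1 (-0.67 ± 0.14) fell as well. The falls of DLX2 (-0.56), OTX1 (-0.47) and GATA2 (-0.40) were each lost without any 1 DMSO library (adjusted p from 0.0514 to 0.117), those of OTX1 and GATA2 also without EZH2i+AKTi B (0.102 and 0.151) and that of DLX2 without EZH2i+AKTi A or EZH2i+AKTi C (0.0851 and 0.0616). DLX2 and GATA2 also lost the call with the stricter filter (0.0578 and 0.0582). HAND2, PAX7 and NKX2-2 had 0 counts in all 6 HCC38 libraries, and TBX18 had 1 count in the combination and 0 in DMSO.

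In HCC1937 the combination raised 18 of 41 tested genes and lowered 6, beside 30.5% and 28.8% of all 17692 genes (59.3% in either direction), with a median of 0.29 against 0.03 over all genes. Among the 36 over the filter in every DMSO library, 16 were higher and 6 lower, beside 28.6% and 31.6%. Mitochondrial genes took 7.45 ± 0.96% of counts in the combination libraries and 5.77 ± 0.84% in DMSO (SD, n = 3 each), a difference whose part in the results was not tested. The share of the list raised was nearer to that of all genes than in the other lines, and the share lowered was below it. Of the cell type markers, 6 of 10 epithelial genes were lower (4 of them at least 2-fold) and 2 higher, 4 of 5 endothelial genes were higher and 0 lower, and 3 of 4 tested fibroblast genes were higher and 1 lower. The part of these markers in the results was not tested. Of 18 genes below 0.5 CPM in DMSO, 6 were tested and 3 met the rule for opened genes, beside 37.2% of 2589 tested genes. Of the 6, 5 (HAND1, TBX1, LHX9, GSC and IRX1) had not passed the filter in every DMSO library, 2 of the opened genes (TBX1 and GSC) among them, so the number supports nothing. TBX1 had 1.49, 1.18 and 1.18 CPM under EZH2i+AKTi, against 0.288, 0.286 and 0.0416 CPM in DMSO (2.65 ± 0.40, adjusted p = 4.35e-05). SIX3 had 1.87, 1.04 and 1.59 CPM under EZH2i+AKTi, against 0.553, 0.484 and 0.333 CPM in DMSO (1.71 ± 0.29, adjusted p = 0.000103). The groups of both genes were apart. GSC was the other (1.31 ± 0.42), with a call lost without DMSO A or EZH2i+AKTi B (adjusted p = 0.0623 and 0.0714). HAND2, too low to test, had 15, 14 and 4 counts under EZH2i+AKTi, against 0, 0 and 1 in DMSO, a ratio of 36.2 (6.05 to 1471). NKX2-2 had 11 counts and 1 (ratio 12.1, 1.75 to 519).

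FOXF1 was the gene with the largest change among those well counted in HCC1937 DMSO, with 11.4, 12.1 and 11.2 CPM under EZH2i+AKTi, against 3.01, 2.4 and 2.69 CPM in DMSO (2.10 ± 0.11, adjusted p = 8.20e-10). EMX2 had 4.04, 5.42 and 4.49 CPM under EZH2i+AKTi, against 1.35, 1.56 and 1.81 CPM in DMSO (1.56 ± 0.17). DLX3 had 3.77, 4.37 and 4.1 CPM under EZH2i+AKTi, against 2.02, 1.63 and 1.75 CPM in DMSO (1.18 ± 0.15). All combination libraries were above all DMSO libraries for these genes. PITX1 fell furthest, to 229, 202 and 221 CPM under EZH2i+AKTi, against 531, 479 and 465 CPM in DMSO (-1.18 ± 0.06, adjusted p = 8.57e-10). IRX5 (-0.75 ± 0.09), LHX1 (-0.73 ± 0.09), IRX3 (-0.71 ± 0.08), MEIS2 (-0.25 ± 0.08) and GATA6 (-0.21 ± 0.06) were the other 5 that fell. Genes without a call in HCC1937 included FOXC1 (0.05), FOXF2 (-0.03), FOXC2 (-0.06), EN2 (-0.12), PAX6 (0.05) and SIX2 (0.02).

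**Figure D5:**
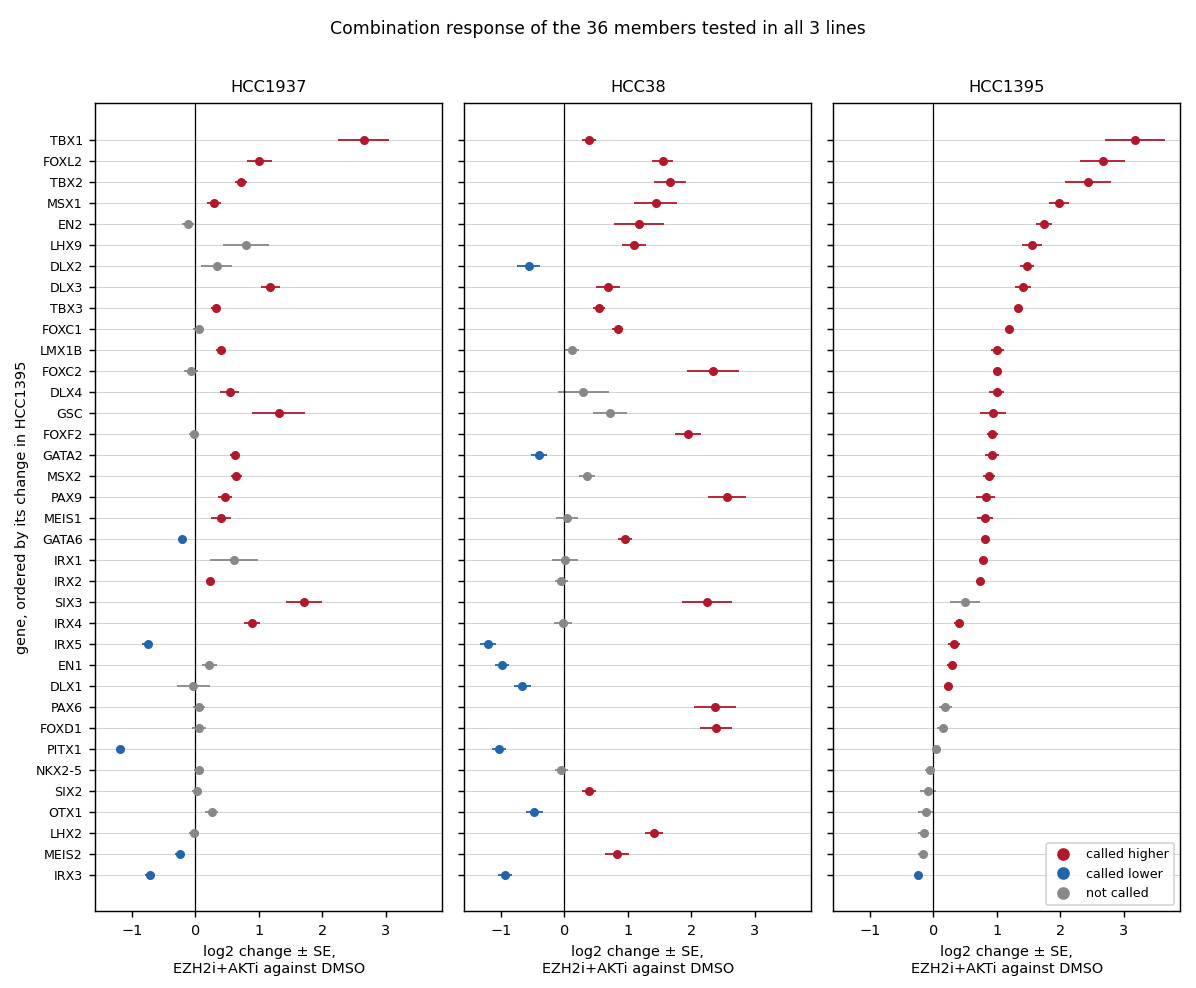
Log2 change under EZH2i+AKTi against DMSO with its SE (horizontal axis) for the 36 genes tested in all 3 lines, a panel for each line, ordered by the change in HCC1395, red where called higher, blue where called lower and grey where not called. DLX3, FOXL2, TBX1, TBX2, TBX3, PAX9 and MSX1 are red in all 3 panels and IRX3 is blue in all 3.

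Of the 36 genes tested in all 3 lines, 7 were called higher in each (DLX3, FOXL2, TBX1, TBX2, TBX3, PAX9 and MSX1), or 19.4%, beside 7.8% of the 14980 genes tested in all 3. FOXL2, TBX1 and TBX2 had not passed the filter in every DMSO library of HCC1395, nor TBX1 in HCC1937 and PAX9 in HCC38. There they could hardly be called other than higher, so the share of 19.4% supports nothing. IRX3 was called lower in each line, 2.78% beside 7.34%. Several of these calls rest on single libraries, since that of DLX3 in HCC38 was lost without DMSO B, DMSO C or EZH2i+AKTi B (adjusted p from 0.066 to 0.0881), that of TBX1 in HCC38 without DMSO A, DMSO B, DMSO C or EZH2i+AKTi B (0.0602 to 0.101), and that of MSX1 in HCC1937 without any 1 DMSO library, EZH2i+AKTi A or EZH2i+AKTi B (0.0642 to 0.182), with no low-count filter (0.0742) and by DESeq2 (0.0677). TBX3 had 26.2, 26.8 and 25.4 CPM under EZH2i+AKTi, against 21.6, 19.1 and 22 CPM in DMSO, in HCC1937, and 121, 111 and 105 CPM under EZH2i+AKTi, against 76, 71.4 and 79.7 CPM in DMSO, in HCC38. Its rise was smaller there than in HCC1395, with a difference of -1.02 ± 0.10 for HCC1937 minus HCC1395 (adjusted p = 2.45e-09) and -0.77 ± 0.09 for HCC38 minus HCC1395 (adjusted p = 2.06e-07).

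Responses to the combination differed between the lines for many of the 48 genes in the joint comparison. HCC1937 minus HCC38 was positive for 8 and negative for 14, beside 14.3% and 17.7% of all genes (32% in either direction). HCC1937 minus HCC1395 was positive for 4 and negative for 17, beside 11.3% and 12% (23.3% in either direction). HCC38 minus HCC1395 was positive for 11 and negative for 19, beside 17.4% and 15.6% (33% in either direction). The negative differences included PITX1, whose change differed by -1.23 ± 0.10 in HCC1937 and -1.05 ± 0.11 in HCC38 relative to HCC1395, where it was not called. FOXC1 (-1.14 ± 0.10 and -0.33 ± 0.10) and IRX3 (-0.47 ± 0.12 and -0.66 ± 0.12) showed smaller or more negative changes in both other lines as well, that of FOXC1 in HCC38 losing its call with no low-count filter (adjusted p = 0.0518). In the positive direction HCC38 exceeded HCC1395 for TBX15 (2.34 ± 0.41), FOXD1 (2.26 ± 0.25), PAX6 (2.21 ± 0.27), PAX9 (1.75 ± 0.30) and LHX2 (1.59 ± 0.14). These 5 were all lower in HCC38 than in HCC1395 in DMSO. They were picked from the 11, and a link between untreated level and response was not tested. SIX2 went another way. It rose in HCC38 (0.39), was not called in HCC1395 (-0.08) and was higher in HCC38 in DMSO (1.65 ± 0.11). FOXD1, PAX6 and FOXF2 had 0.526 ± 0.145, 0.243 ± 0.126 and 2.08 ± 0.738 CPM in HCC38 DMSO and 27.7 ± 1.16, 6.4 ± 0.34 and 5.89 ± 0.0982 CPM in HCC1395 DMSO (SD, n = 3 each).

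Other gene lists were counted in the same comparisons. Under EZH2i in HCC1395, 18 of 27 tested HOX genes were higher and 0 lower (median 0.63), 8 of 12 SOX genes higher and 0 lower (0.28), and 11 of 21 cofactors of these factors, such as PBX, TLE, LMO and EYA genes, higher and 3 lower (0.32), beside 18.8% and 14.9% of all genes. Under AKTi the counts were 6 higher and 3 lower for HOX (22.2% and 11.1%), 6 and 1 for SOX (50% and 8.33%) and 7 and 3 for cofactors (33.3% and 14.3%), beside 27.1% and 22.6% of all genes. Under EZH2i+AKTi they were 18 and 2 for HOX (66.7% and 7.41%), 9 and 1 for SOX (75% and 8.33%) and 11 and 5 for cofactors (52.4% and 23.8%), beside 32.5% and 27.4%. Of 14 tested PRC2 genes, 4 were higher and 8 lower under EZH2i+AKTi (28.6% and 57.1%), 1 higher and 3 lower under EZH2i (7.14% and 21.4%), and 5 higher and 8 lower under AKTi (35.7% and 57.1%), to be read against the same shares of all genes. Of 24 products of the lineages that the 53 factors help to specify, such as cardiac and muscle proteins, 7 were high enough to test in HCC1395, and 3 were higher and 0 lower under EZH2i, too few to read against 18.8% and 14.9%.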

How the data were processed

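The deposited files hold raw counts per gene, one file per library, keyed by symbol. Per the submitters' processing notes, the authors used fastp, HISAT2 2.0.5, DESeq2 and build hg38. Strandedness, annotation and read counter were not given in the sources used here. A directional and a non-directional library are both possible under the labels' protocols. The exons of 21 of the 53 genes overlap another gene in GENCODE 29, so reads may be shared (TBX1 with GNB1L and PAX9 with SLC25A21, for example). Deposited normalised tables (24 columns) were not used. Sequences are from RefSeq (GRCh38.p14).

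Genes were tested with edgeR 4.0.16 (limma 3.58.1, R 4.3.3) by the two-sided quasi-likelihood test, with filterByExpr (minimum count 10), TMM scaling and robust dispersions, in a fit per line (18074 genes in HCC1395, 17100 in HCC38 and 17692 in HCC1937) and a joint fit of 24 libraries (20697 genes) for differences between lines. Benjamini-Hochberg adjusted p-values over all genes tested were called at 0.05. Changes are log2, with SE from the fit. The interaction is the log2 change with EZH2i+AKTi minus those with EZH2i and with AKTi. Ratios of counts carry exact 95% intervals, and a fold against 0 counts uses a floor of 3 counts over the group. Both cover counting error only. Totals ran from 33806811 to 41816594 counts in HCC38, 35506411 to 47370609 in HCC1937 and 33469927 to 51815656 in HCC1395.

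All 53 genes could be named at any p. The genes and lists were chosen with earlier results of these data known. The rule for opened genes was applied to HCC38 and HCC1937, and silence per kb computed, after seeing the data. The workflow was tested on simulated data. Alternatives were RLE scaling, no or a stricter filter (1 CPM in 3 libraries), DESeq2 1.42.0, a replicate block, fits of only the groups compared, other thresholds of silence and opening, and each library left out. The main fits did not pair libraries by letter.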

Additional observations from a re-analysis of the deposited data

Results flagged for a closer look

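For the combination against DMSO, the joint comparison called 30 of the 48 genes as responding differently in HCC38 and HCC1395, 21 in HCC1937 and HCC1395, and 22 in HCC1937 and HCC38. Of all genes, 17.4% were positive and 15.6% negative in the first of these. The shares were 11.3% and 12% in the second and 14.3% and 17.7% in the third. In some of these the lines also moved in opposite directions, each with its own call. How many of all genes did so was not counted. DLX1 fell in HCC38 and rose in HCC1395 (a difference of -0.87 on the log2 scale), as did DLX2 (-2.02), the midbrain factor EN1 (-1.26), IRX5 (-1.50) and GATA2 (-1.30). DLX2 had 2.99, 4.26 and 2.66 CPM under EZH2i+AKTi, against 4.74, 4.58 and 5.08 CPM in DMSO, in HCC38, and 12.5, 13.4 and 13.6 CPM under EZH2i+AKTi, against 5.71, 4.01 and 4.37 CPM in DMSO, in HCC1395. The HCC1395 groups did not overlap, and the fall in HCC38 was lost without any 1 DMSO library, EZH2i+AKTi A or EZH2i+AKTi C (adjusted p from 0.0616 to 0.117). The fall of GATA2 in HCC38 was likewise lost without any 1 DMSO library, without EZH2i+AKTi B and with the stricter filter.

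In HCC1937, IRX5 fell where it rose in HCC1395 (-1.08), and so did GATA6 (-1.03). GATA6 had 66.8, 60.5 and 61.1 CPM under EZH2i+AKTi, against 71.5, 71.5 and 75.3 CPM in DMSO, in HCC1937, and 49.4, 47.8 and 53.6 CPM under EZH2i+AKTi, against 27, 26.8 and 31.6 CPM in DMSO, in HCC1395. Set against HCC38, HCC1937 had a fall and HCC38 a rise for LHX1 (-3.70), GATA6 (-1.20) and MEIS2 (-1.10), and the reverse for GATA2 (0.99). The GATA2 fall in HCC38 is the one that was lost without single libraries. LHX1 had 6.97, 6.24 and 7.24 CPM under EZH2i+AKTi, against 11.7, 10.9 and 11.3 CPM in DMSO, in HCC1937, and 1.22, 1.15 and 1.08 CPM under EZH2i+AKTi, against 0.114, 0.209 and 0.113 CPM in DMSO, in HCC38.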

How the results depend on the processing

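Counts of called genes were compared under RLE scaling, either filter, DESeq2, the replicate block and fits of only the groups compared. They stayed within 1.5 times the value reported, except the interaction, where 4 genes were called with no low-count filter against 2. Values of single genes were compared under these settings and with libraries left out. Of these values, 8513 kept their status, called or not called, 74 gained a call and 294 lost one. Among values called in the main fit or in the alternative, 0 changed sign. Changes of sign among values called in neither were not counted. Of the interaction calls among all genes, 33.2% were upward under TMM, 53.9% under RLE scaling and 58.7% by DESeq2. The 2 called genes kept their directions under both scalings. The shares of all genes moved with scaling too. Under EZH2i in HCC1395, 3402 genes were higher and 2685 lower with TMM, against 3095 and 3511 with RLE. Under AKTi the numbers were 4892 and 4087, against 4366 and 4558. The listed genes gave 35 higher and 2 lower under EZH2i with either scaling. The letters gave correlations of deviations over 0.1 in 5 of 18 pairs in HCC1395, 2 of 3 in HCC38 and 0 of 3 in HCC1937. With the replicate block, 37, 25 and 31 genes were called under EZH2i, AKTi and EZH2i+AKTi in HCC1395, 30 in HCC38 and 22 in HCC1937, and 4, 1 and 4 genes were opened in HCC1395. The block ended the calls of TBX2 for EZH2i+AKTi over EZH2i (adjusted p = 0.0631), NKX2-5 under AKTi (0.0552), PAX7 for EZH2i over AKTi (0.0504) and MSX1 in HCC1937 (0.076), among others.

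Opened genes depended on thresholds. Those opened by EZH2i numbered 2 below 0.2 CPM in DMSO, 7 with no filter and 2 with the stricter filter. Those opened by AKTi numbered 0 below 0.2 CPM, under RLE scaling, with no filter and by DESeq2. EZH2i+AKTi in HCC1395 opened 2 below 0.2 CPM, 8 with no filter and 2 with the stricter filter, in HCC38 2 below 0.2 CPM and 4 with the stricter filter, and in HCC1937 1 below 0.2 CPM and 5 with no filter.

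With each library left out, calls ranged from 36 to 40 (EZH2i), 19 to 23 (AKTi), 32 to 35 (EZH2i+AKTi), 18 to 24 (EZH2i+AKTi over EZH2i), 33 to 38 (over AKTi), 34 to 37 (EZH2i over AKTi) and 1 to 7 (interaction) in HCC1395, 22 to 32 in HCC38 and 22 to 25 in HCC1937. Ranges in DMSO were 34 to 37 (HCC1937 over HCC38), 41 to 44 (HCC1937 over HCC1395) and 37 to 39 (HCC38 over HCC1395), and for differences in response 19 to 23, 16 to 20 and 26 to 30. Silent genes numbered 11 to 12 in HCC1937, 11 to 12 in HCC38 and 10 in HCC1395, and below 0.05 CPM per kb they numbered 13, 15 and 10. Opened genes numbered 5 to 7 (EZH2i), 0 to 1 (AKTi) and 5 to 7 (EZH2i+AKTi) in HCC1395, 6 to 8 in HCC38 and 2 to 5 in HCC1937. Without EZH2i B, EZH2i C or DMSO C, EZH2i opened 7, because the filter then asks for counts in fewer libraries and PAX2, NKX2-2 and EMX1 enter. The same holds for EZH2i+AKTi in HCC1395, with 7 without any 1 DMSO library, and in HCC1937 the 5 came without DMSO C. Depth limits which genes could be tested, since 12, 13 and 8 of the 53 in HCC1937, HCC38 and HCC1395 had too few counts to pass the filter.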

Other observations

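Antisense and divergent transcripts beside the 53 genes were counted too. In HCC1395, FENDRR, which is divergent from FOXF1, had 18, 19 and 16 counts under EZH2i, against 3, 1 and 0 in DMSO (3.47 ± 0.72, adjusted p = 0.000769). HAND2-AS1 had 14, 18 and 20 counts under EZH2i, against 3, 0 and 0 in DMSO (adjusted p = 0.000927). Both averaged below 0.1 CPM in DMSO and stayed below 1 CPM under EZH2i (0.442 and 0.429 CPM), and every EZH2i library lay above every DMSO library. Like TBX2-AS1 below, they had not passed the low-count filter in every DMSO library of HCC1395. FENDRR had not done so in HCC1937 either. Having entered the test through treated libraries, these transcripts could hardly be called other than higher. GATA2-AS1 (1.71 ± 0.18), GATA6-AS1 (1.26 ± 0.21) and TBX2-AS1 (1.43 ± 0.43) were also higher under EZH2i. EMX2OS had 19 counts under EZH2i and 0 in DMSO, with 3 and 0 for EMX2. PAX8-AS1 was lower (-0.69 ± 0.20) while PAX8 was not called (0.07). Under AKTi, GATA2-AS1 was higher (0.87 ± 0.19) while GATA2 was lower (-0.33 ± 0.13), and DLX6-AS1 was lower (-0.68 ± 0.13). In HCC1937, FENDRR rose under EZH2i+AKTi (2.59 ± 0.44) together with FOXF1. The pair did not move together throughout HCC1395. There FENDRR averaged 0.241 ± 0.133 CPM under EZH2i+AKTi and 0.442 ± 0.075 CPM under EZH2i (SD, n = 3 each), while FOXF1 averaged 7.12 and 4.84 CPM. Under AKTi FENDRR averaged 0.027 CPM, against 0.036 CPM in DMSO, while FOXF1 was called higher. Because the strand setting is not known, reads of overlapping partners such as HAND2 and HAND2-AS1 cannot be told apart.

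Over the 8 group means, the log2 distance from lowest to highest was taken for genes averaging at least 1 CPM. Its median was 3.31 for the 38 of these genes that had a value, against 1.64 over 14298 genes. The distance has no value where a group mean is 0. That left out PAX7, TBX18, DLX5, DLX6 and HAND2, which are among the genes that differed most between lines. The cardiac factor NKX2-5 stood at the other end. Its libraries ran from 24.2 to 31.1 CPM with a median of 27.4, a distance of 0.24, and 0.035% of the 14298 genes had a smaller one. It had 27, 25.6 and 27.8 CPM in HCC1937 DMSO, 27.8, 26.2 and 25.9 CPM in HCC38 DMSO and 30.0, 25 and 30.9 CPM in HCC1395 DMSO. NKX2-5 was chosen for this after its values were seen.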
